A study of Mus musculus with 102 samples.

Results

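Epidermal stem cells of adult mice under calorie restriction (CR) were compared with those of adult mice on control diet at a single time of day, zeitgeber time 16 (ZT16, 16 h after the start of the light phase). The comparison took every array whose labels give an age of 47 to 57 weeks and time point T16, which are 9 of the 102 arrays of the series: 5 of CR mice and 4 of control mice. All mice were Per1-Venus BAC transgenic animals on a C57B6/J background, so the reporter of the clock gene Per1 was carried by both diets. CR mice received 30% less food than the ad libitum intake for 25 weeks, after 3 weeks of adaptation in which their food was cut by 10% per week, and control mice ate control diet ad libitum. For comparison, values are also given from aged mice of 83 to 97 weeks at ZT16 (4 CR and 4 control arrays) and from the 44 adult arrays of the other times (ZT0, 4, 8, 12 and 20). The sex of the mice is not given in the labels, which also name no gate or marker by which the stem cells were isolated. Nothing in the labels says which arrays came from mice killed on the same day. The design text gives 4 mice for each time and diet, while CR has 5 arrays here. It also has 1 mouse per diet killed per day, so the spread between mice of a group includes any day effect. Unless stated otherwise, standard errors and p values of the linear model (limma) rest on this spread pooled over all groups of the 102 arrays. They do not measure the spread of these 9 arrays alone, on which the exact permutation tests rest.

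The cell-autonomous circadian clock is a loop of transcription. The activators BMAL1 (encoded by Arntl), CLOCK and NPAS2 bind E-box sequences and switch on genes for their own repressors (the period genes Per1 to Per3 and the cryptochromes Cry1 and Cry2), for the REV-ERB receptors, which repress Arntl, and for the PAR bZIP factors DBP, TEF and HLF, which act on D-box sequences. In the epidermis this clock is known to time functions of basal keratinocytes such as DNA replication and differentiation, and feeding is a known time cue for clocks outside the brain.

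Values are log2 expression levels made by the authors with RMA, and a difference is always CR minus control on that scale, followed by its standard error (SE). Array medians over the series lay between 5.466 and 5.714. The 5 CR arrays deviated from their group mean by a median of 0.09 to 0.145, against 0.12, 0.205, 0.181 and 0.096 for control replicates 1 to 4, so control replicates 2 and 3 stood furthest from their group. The basal keratinocyte genes Krt5, Krt14 and Col17a1 lay between 12.24 and 12.63 on all 9 arrays, the top of the scale. The suprabasal keratins Krt1 and Krt10 were also high, at 11.13 to 12.05 and 11.27 to 11.81 in CR and 11.39 to 12.14 and 11.28 to 11.78 in control samples. The follicle stem cell genes Cd34 and Lgr5, the Langerhans cell gene Cd207, the melanocyte genes Dct and Tyr, the fibroblast gene Col1a2 and the adipocyte gene Adipoq had means over all arrays of the series below the level used as a filter (4.735, the 30th percentile of probe set means). Single ZT16 arrays passed that level for Dct (up to 5.01 in CR and 4.95 in control samples), Tyr (up to 5.11 in CR and 5.15 in control samples), Col1a2 (up to 5.09 in control samples) and Cd207 (up to 4.89 in CR and 4.87 in control samples). Other markers of such cells passed the filter. The follicle gene Sox9 lay at 6.88 to 8.33 in CR and 6.52 to 7.86 in control samples. Postn, also of that list, lay at 6.72 to 8.3 and 7.76 to 8.64. The myeloid gene Cd74 lay at 5.58 to 6.53 and 5.94 to 6.53, and the fibroblast gene Col1a1 at 5.8 to 5.99 and 5.58 to 6.85. The T cell gene Cd3g and the red blood cell gene Hba-a1 passed it too. Xist exceeded the mean of the Y-linked genes on 3 of 5 CR and 2 of 4 control arrays.

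At ZT16 a single gene, Sphk2, passed the test. Sphk2 encodes sphingosine kinase 2, an enzyme that makes the lipid mediator sphingosine-1-phosphate. Its level was 7.51, 7.28, 6.35, 6.91 and 7.28 on the CR arrays, against 9.27, 8.09, 8.88 and 8.88 on the control arrays. Every CR array lay below every control array. The difference was -1.72 ± 0.31, or 0.305 of the control level, with a 95% confidence interval from -2.33 to -1.10 and an adjusted p of 0.00434 (limma over 13383 genes, Benjamini-Hochberg). An exact permutation test over the 126 ways to split the 9 arrays gave a two-sided p of 0.0159, the smallest this design allows. Called genes were thus 0.00747% of the genes tested, and 0 were higher in CR. At an unadjusted p under 0.05 there were 215 genes, 152 lower and 63 higher in CR, where p values spread evenly would give 669. The lower ones were 1.14% and the higher ones 0.471% of all genes. By the permutation test, 0 genes passed after adjustment and 200 had an unadjusted p under 0.05. Without CR replicate 3 or without control replicate 1, 0 genes passed, and the difference of Sphk2 was then -1.54 (adjusted p = 0.102) and -1.55 (adjusted p = 0.181). In a limma fit of the 9 arrays alone its adjusted p was 0.259.

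The call rested on the brighter of the Sphk2 probe sets. The other one read 7.57 in CR and 7.52 in control samples on average, a difference of 0.05, with overlapping ranges of 7.04 to 8.21 and 6.72 to 8.15. With the mean of both probe sets the difference was -0.83 (adjusted p = 1). In the RefSeq annotation Sphk2 lies on chromosome 7 beside the clock output gene Dbp, on the opposite strand, and the ends of both gene models overlap. The labels do not state a strand for the amplified cDNA, so signal from the transcripts of Sphk2 and Dbp cannot be told apart where they overlap, and the part of such signal in this probe set was not tested. Dbp, which encodes the D-box binding protein, was read at 5.95, 6.12, 6.19, 6.27 and 5.49 on the CR arrays, against 7.68, 6.51, 7.26 and 6.88 on the control arrays. Its groups did not overlap either, but the difference of -1.08 ± 0.29 did not pass (adjusted p = 1.00, limma).

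**Figure D1:**
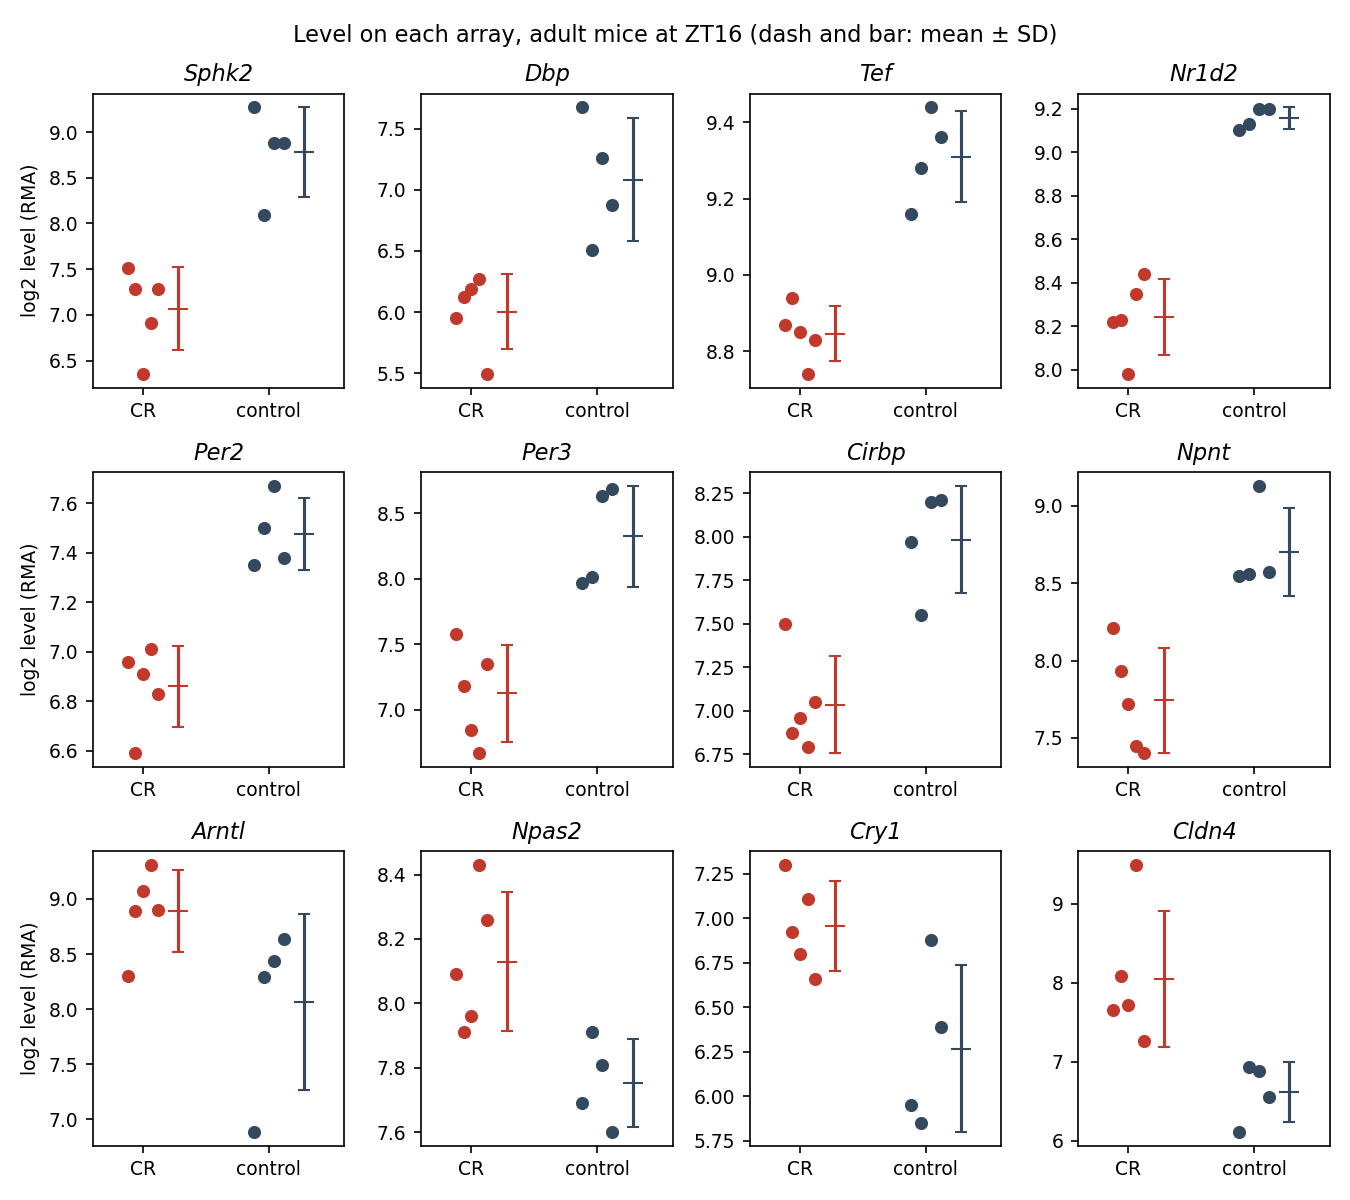
Log2 RMA level of 12 genes on each adult array at ZT16, CR (5 arrays) left of control (4 arrays), with the mean and SD of each group beside its points. The axes do not start at 0 and differ between genes. Sphk2, Dbp, Tef, Nr1d2, Per2, Per3, Cirbp and Npnt have every CR array below every control array, Cldn4 has every CR array above, and Arntl, Npas2 and Cry1 overlap between the diets.

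Through the day both genes ran alike in adult mice. Sphk2 averaged 6.86, 9.87, 10.43, 9.43, 7.07 and 6.34 at ZT0, 4, 8, 12, 16 and 20 under CR, and 6.16, 8.10, 10.00, 10.15, 8.78 and 6.75 on control diet. It was highest at ZT8 under CR and at ZT12 on control diet. Dbp averaged 6.01, 8.35, 9.42, 7.86, 6.00 and 5.86 under CR, and 5.72, 6.72, 8.12, 8.62, 7.08 and 6.05 on control diet, with its highest means at the same times as Sphk2. CR minus control for Sphk2 was thus 0.70, 1.77 and 0.43 at ZT0, 4 and 8 and -0.72, -1.72 and -0.40 at ZT12, 16 and 20.

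Of the 27 clock genes listed, 21 were tested, and 0 of them passed after adjustment. At an unadjusted p under 0.05, 7 of the 21 (33.3%) were lower and 2 (9.52%) were higher in CR, beside 1.14% and 0.471% of all tested genes. In 5 of them (23.8%) every CR array lay below every control array, which held for 41 genes in all, 0.306% of those tested. In 0 of them did every CR array lie above, which held for 20 genes, or 0.149%. Groups free of overlap in either direction have the smallest two-sided permutation p, 0.0159. Evenly spread permutation p values would give that fraction of all genes, more than both shares here together. Lack of overlap in a single gene is therefore not evidence of a difference. With 1 array left out in turn, 6 to 8 of the 21 were lower and 0 to 3 higher at an unadjusted p under 0.05 (limma). The higher count was 0 without CR replicate 4, and 1 without CR replicate 2 or without control replicate 1 or 2. The median difference of the 21 genes was -0.16, beside -0.01 over all tested genes, with 14 genes below and 7 above 0. These genes follow one daily loop and were examined because of it, so they are not independent of each other.

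Among the repressors, Per3 and Per2 were the lowest under CR. Per3, a period gene, was read at 7.58, 7.18, 6.85, 6.67 and 7.35 in CR samples, against 7.97, 8.01, 8.63 and 8.68 in control samples. The groups did not overlap, and the difference was -1.19 ± 0.30 (adjusted p = 0.609, limma). Its 4 other probe sets differed by -0.72, -0.15, -0.25 and -0.67. Per2, a period gene whose loss is known to disrupt the clock of mice, was read at 6.96, 6.59, 6.91, 7.01 and 6.83 in CR samples, against 7.35, 7.50, 7.67 and 7.38 in control samples. These groups did not overlap either, and the difference was -0.61 ± 0.18 (adjusted p = 1.00). Cry2, a cryptochrome, averaged 7.82 ± 0.18 in CR and 8.29 ± 0.43 in control samples (SD, n = 5 and 4), with control replicate 2 inside the CR range. Cry1, the other cryptochrome, differed in the opposite direction, with 7.30, 6.92, 6.80, 7.11 and 6.66 in CR samples, against 5.95, 5.85, 6.88 and 6.39 in control samples. Only control replicate 3 reached into the CR range, and the difference was 0.69 ± 0.34. Per1, the gene whose reporter these mice carry, averaged 9.05 ± 0.14 in CR and 9.06 ± 0.66 in control samples, where control replicate 1 was lowest at 8.13 and the other 3 lay at 9.20 to 9.69. The interval of its difference ran from -0.45 to 0.44, which does not show that the diets were alike.

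Nr1d2, which encodes the repressor REV-ERB beta, came closest to the threshold after Sphk2. It was read at 8.22, 8.23, 7.98, 8.35 and 8.44 in CR samples, against 9.10, 9.13, 9.20 and 9.20 in control samples. The control arrays lay close together, and the gap between the groups was wider than either group. The difference was -0.92 ± 0.20 (adjusted p = 0.106, limma), and the second probe set differed by -1.07. Rora, an activating receptor that competes with REV-ERB at the same sites, averaged 11.35 in both diets, and its difference of 0.00 ± 0.14 changed sign under several alternatives.

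Of the PAR bZIP factors, Tef had the tightest groups. It was read at 8.87, 8.94, 8.85, 8.74 and 8.83 in CR samples, against 9.16, 9.28, 9.44 and 9.36 in control samples, a difference of -0.46 ± 0.15 (adjusted p = 1.00) without overlap. Its second probe set differed by -0.74. Hlf differed by -0.16 ± 0.18, and Nfil3, a repressor at the same D-box sites, by -0.14 ± 0.28, both with overlapping groups. Together with Dbp, all 4 members of this list had differences below 0, with a median of -0.31.

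With the probe set used for each gene, the activators lay on the other side of 0, with a median of 0.38 over 3 genes. Npas2, a partner of BMAL1, was read at 8.09, 7.91, 7.96, 8.43 and 8.26 in CR samples, against 7.69, 7.91, 7.81 and 7.60 in control samples. The groups met at 7.91, and the difference was 0.38 ± 0.15 (adjusted p = 1.00). A second Npas2 probe set differed by 1.06. Arntl was read at 8.30, 8.89, 9.07, 9.31 and 8.90 in CR samples, against 6.88, 8.29, 8.44 and 8.64 in control samples. Control replicate 1 was far below the other control arrays, and the difference was 0.83 ± 0.44, or 0.44 without that array. The second Arntl probe set differed by 0.47, with ranges of 7.02 to 7.80 in CR and 6.82 to 7.04 in control samples. Clock differed by 0.13 ± 0.20, and its other probe sets by -0.07, -0.22 and 0.09, so its direction depended on the probe set.

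The modulators of the loop showed mixed values. Tipin, a replication fork protein and partner of TIMELESS, was read at 7.04, 6.89, 6.24, 6.22 and 6.53 in CR samples, against 8.28, 6.41, 7.46 and 7.16 in control samples, a difference of -0.74 ± 0.25 with overlap. Without control replicate 1, the highest array, it was -0.42. Timeless itself differed by -0.38 ± 0.20 and Ciart, a repressor that binds BMAL1, by -0.27 ± 0.15. The transcriptional repressor Bhlhe40 differed by -0.24 ± 0.25, the deubiquitinase Usp2 by 0.37 ± 0.32, and the kinase genes Csnk1d and Csnk1e by 0.20 ± 0.18 and -0.02 ± 0.17. None of these 7 genes passed after adjustment.

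Promoter windows of RefSeq (build GRCm38.p6, 300 bases around the annotated start) were at hand for 17 of the 21 clock genes, in 25 windows. The motifs searched on both strands were the E-box CACGTG, its variant CACGTT, the D-box forms TTATGTAA and TTATGCAA and the REV-ERB half-site AGGTCA, which do not overlap each other in the windows printed. CACGTG stood in 20% of the clock windows and 7.15% of all 32851 windows. CACGTT stood in 8% and 4.68%, TTATGTAA in 8% and 0.938%, TTATGCAA in 4% and 0.743%, and AGGTCA in 20% and 16.3%. The 4 windows are shown because each holds one of these motifs while the genes differed in direction: Per3 and Tef were lower in CR without overlap, Cry1 was higher with overlap, and Ciart had overlapping groups. Capitals mark TTATGTAA in Per3, CACGTG in Tef, Cry1 and Ciart, and in Cry1 also AACGTG, the reverse complement of CACGTT. A match is a description of letters and not evidence of binding.
Per3 (chr4:151044616-151044915, minus strand): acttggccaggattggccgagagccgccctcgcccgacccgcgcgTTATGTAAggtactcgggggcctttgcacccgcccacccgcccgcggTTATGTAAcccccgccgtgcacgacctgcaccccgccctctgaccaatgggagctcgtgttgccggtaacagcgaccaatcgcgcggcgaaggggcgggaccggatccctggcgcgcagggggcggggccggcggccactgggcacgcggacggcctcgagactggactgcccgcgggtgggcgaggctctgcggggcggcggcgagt
Tef (chr15:81802423-81802722, plus strand): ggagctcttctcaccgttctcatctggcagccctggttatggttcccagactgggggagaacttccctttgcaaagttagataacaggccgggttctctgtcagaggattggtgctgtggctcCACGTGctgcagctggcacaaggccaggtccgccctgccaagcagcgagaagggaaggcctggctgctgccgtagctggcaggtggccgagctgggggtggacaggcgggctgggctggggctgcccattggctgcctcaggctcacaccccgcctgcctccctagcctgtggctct
Cry1 (chr10:85185005-85185304, minus strand): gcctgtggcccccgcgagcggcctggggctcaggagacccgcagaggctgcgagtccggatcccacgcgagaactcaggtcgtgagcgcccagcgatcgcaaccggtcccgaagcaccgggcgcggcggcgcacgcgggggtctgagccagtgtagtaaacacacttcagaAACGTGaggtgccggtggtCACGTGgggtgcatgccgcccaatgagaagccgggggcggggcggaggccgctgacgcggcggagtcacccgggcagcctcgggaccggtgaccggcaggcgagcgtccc
Ciart (chr3:95882179-95882478, minus strand): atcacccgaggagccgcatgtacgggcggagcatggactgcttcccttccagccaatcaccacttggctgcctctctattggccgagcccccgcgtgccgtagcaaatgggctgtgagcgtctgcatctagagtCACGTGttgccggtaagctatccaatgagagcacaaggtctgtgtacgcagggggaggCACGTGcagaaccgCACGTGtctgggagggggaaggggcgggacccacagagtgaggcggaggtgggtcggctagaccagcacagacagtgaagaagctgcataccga

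In the Per3 window the D-box letters begin 205 and 158 bases before the start. The E-box of Tef begins 127 bases before it, and those of Ciart 116, 58 and 44 bases before it. In Cry1 the variant begins 79 and the E-box 60 bases before the start. So genes with a CACGTG window were found on both sides: Tef differed by -0.46, Ciart by -0.27, Per1 by -0.01 and Cry1 by 0.69.

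As a profile, the clock genes of CR samples at ZT16 stood nearest to control samples of a later time. Over the 21 genes, the root mean square difference between the CR mean at ZT16 and the control means was 0.63, 0.504, 0.795, 1.11, 0.561 and 0.236 log2 units at ZT0, 4, 8, 12, 16 and 20, smallest at ZT20. The control mean at ZT16 differed from the CR means by 0.889, 0.482, 0.796, 0.41, 0.561 and 0.817 at the same times, smallest at ZT12. Both are descriptions with no test, on a grid of times 4 h apart. The nearest control time of the CR profile was ZT20 also with each of the 9 arrays left out in turn, with arrays centred on their median, with other filters and with the mean of a gene's probe sets.

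**Figure D2:**
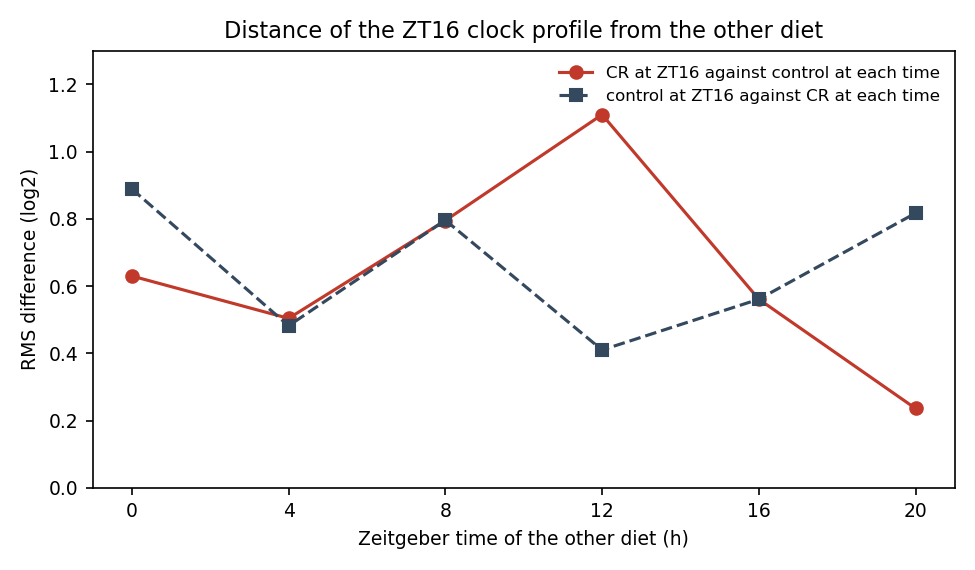
Root mean square difference in log2 units over 21 clock genes between the ZT16 mean of one diet and the mean of the other diet at each zeitgeber time in h, in adult mice. The CR profile at ZT16 (red circles) is nearest to control at ZT20 (0.236), and the control profile at ZT16 (dark squares) is nearest to CR at ZT12 (0.41).

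The levels of 3 of these genes at the neighbouring times stand beside this profile. Nr1d2 averaged 9.58, 8.24 and 7.84 at ZT12, 16 and 20 under CR, and 9.80, 9.16 and 8.19 on control diet. Per2 averaged 8.12, 6.86 and 6.35 under CR at these times, and 8.04, 7.47 and 6.46 on control diet. Arntl averaged 7.44, 8.90 and 8.98 under CR, and 6.68, 8.06 and 8.83 on control diet. For all 3 genes the CR mean at ZT16 lay nearer to its own mean at ZT20 than the control mean at ZT16 did to its own.

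**Figure D3:**
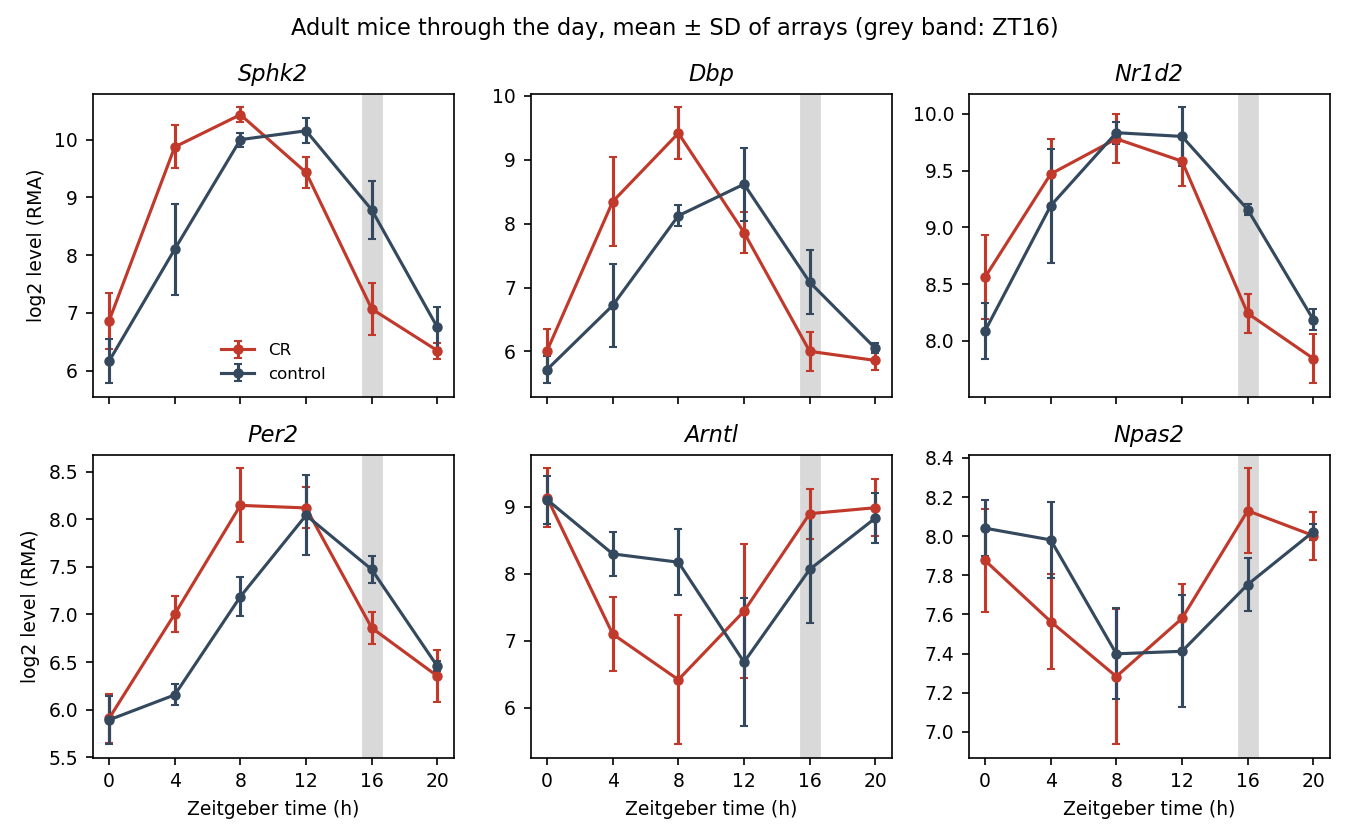
Mean log2 RMA level (points, with SD of arrays as bars) of 6 genes at 6 zeitgeber times in h in adult mice, CR in red and control in dark grey, with ZT16 marked by a grey band. At ZT16 Sphk2, Dbp, Nr1d2 and Per2 are lower and Arntl and Npas2 higher under CR; at ZT4 Sphk2, Dbp and Per2 are higher under CR.

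The diet difference at ZT16 was tested against the mean diet difference at the 5 other times, which uses the same ZT16 arrays and so is no independent evidence on them. In 3 genes, 0.0224% of those tested, it differed after adjustment in limma, and in 420 at an unadjusted p under 0.05. The diet difference at ZT16 minus its mean at the other times was -2.07 ± 0.34 for Sphk2 (adjusted p = 0.000433). It was -0.97 ± 0.20 for Per2 (adjusted p = 0.0234) and -1.53 ± 0.32 for Dbp (adjusted p = 0.0397). The next by p were Nr1d2 (-0.94 ± 0.22, adjusted p = 0.157), Tef (-0.65 ± 0.16, adjusted p = 0.311) and Ift43, a gene of transport in cilia (-0.58, adjusted p = 0.544). Per2 differed by 0.02, 0.85, 0.96 and 0.08 at ZT0, 4, 8 and 12, by -0.61 at ZT16 and by -0.10 at ZT20. Dbp differed by 0.30, 1.63, 1.29 and -0.76 at ZT0, 4, 8 and 12, by -1.08 at ZT16 and by -0.19 at ZT20. The mean over the other times thus joins differences of both signs, and the test does not set ZT16 apart from each of them. With 1 of the 9 ZT16 arrays left out, Sphk2 was called each time. Per2 lost its call in 5 of the 9 cases (without CR replicate 2 or 5 or without control replicate 2, 3 or 4). Dbp lost its call in 7 of them, all but those without CR replicate 4 or control replicate 2. With 1 of the 44 arrays of other times left out, Dbp lost its call in 11 cases, and Per2 and Sphk2 in 0.

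In aged mice at ZT16, 22 genes passed, 15 lower and 7 higher in CR (0.164% of those tested), and 747 had an unadjusted p under 0.05, of which the 398 lower ones were 2.97% of all. Clock genes with an unadjusted p under 0.05 were 8 of 21, all lower, and the median difference of the 21 was -0.16. Sphk2 differed by -1.96 ± 0.33 (adjusted p = 0.000613), Nr1d2 by -1.09 ± 0.21 (adjusted p = 0.00343), Per3 by -1.60 ± 0.32 (adjusted p = 0.00606), Per2 by -0.91 ± 0.19 (adjusted p = 0.00759) and Dbp by -1.33 ± 0.31 (adjusted p = 0.0432). Leaving out 1 aged array gave 4 to 20 calls, the fewest without aged CR replicate 1, when Sphk2 was called and Nr1d2, Per3, Per2 and Dbp were not. No array is shared between the ages. The difference of the diet effects, adult minus aged, passed in 0 genes (0%, limma), with 273 at an unadjusted p under 0.05. It was 0.24 ± 0.45 for Sphk2, 0.17 ± 0.29 for Nr1d2, 0.40 ± 0.44 for Per3 and 0.30 ± 0.26 for Per2.

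**Figure D4:**
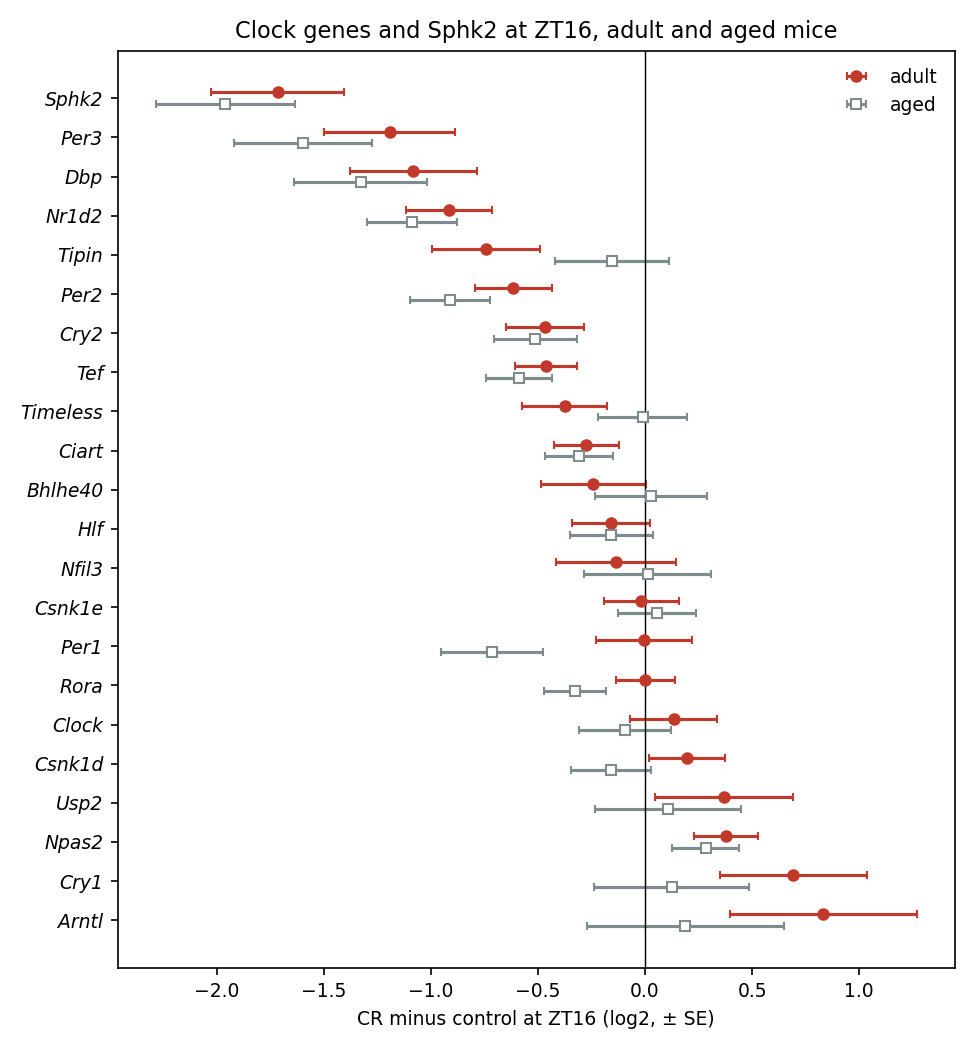
CR minus control at ZT16 in log2 units with SE, for 21 clock genes and Sphk2, in adult mice (red circles) above aged mice (open grey squares). Sphk2, Per3, Dbp, Nr1d2, Per2, Cry2, Tef and Ciart are below 0 by more than the SE at both ages, while Per1 stands near 0 in adult and at -0.72 in aged mice.

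The 6 genes with the smallest p for the adult minus aged difference did not pass (adjusted p = 1.00 in each). Herpud1, a gene of protein breakdown at the endoplasmic reticulum (ER), differed by 0.10 in adult and -0.65 in aged mice, and Trp53inp1, a stress gene induced by p53, by 0.40 and -0.96. Control replicate 1 of the adult mice was low for both, at 9.49 and 8.03. Lrrc51 differed by -0.20 and 0.27, Pgm1, an enzyme of glycogen use, by -0.30 and 0.63, Bspry by 0.08 and 0.71, and Aldh3b1, an aldehyde dehydrogenase, by -0.01 and 0.33.

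Outside the clock, the lowest genes by p were Npnt, Wwox and Lancl1, none past the threshold. Npnt encodes nephronectin, a matrix protein that binds integrin alpha 8 and anchors the arrector pili muscle at the hair follicle. It was read at 8.21, 7.93, 7.72, 7.45 and 7.40 in CR samples, against 8.55, 8.56, 9.13 and 8.57 in control samples. The groups did not overlap, and the difference was -0.96 ± 0.22 (adjusted p = 0.183, limma). Of its 4 other probe sets, 3 differed by -0.58 to -0.95 and 1 by 0.08. CR minus control for Npnt was below 0 at every time, from -0.28 at ZT0 to -0.96 at ZT16. Lancl1, a glutathione-binding protein, was read at 9.53, 9.53, 9.19, 9.17 and 9.45 in CR samples, against 10.18, 9.63, 9.86 and 9.75 in control samples, a difference of -0.48 ± 0.14 (adjusted p = 1.00) without overlap. Wwox, an oxidoreductase gene, differed by -0.60 ± 0.17, with control replicate 3 inside the CR range. Its other probe sets differed by 0.11 and 0.00, and with the mean of all of them the difference was -0.16.

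On the higher side 8 genes are named by the same rule, which leaves out unnamed transcripts, all at an adjusted p of 1.00. Rccd1 was read at 6.16, 6.31, 6.30, 6.15 and 6.46 in CR samples, against 6.02, 6.03, 5.86 and 5.82 in control samples. That is a difference of 0.35 ± 0.10 without overlap. Grhl1, a grainyhead transcription factor that acts on desmosome genes, was read at 9.02, 8.86, 9.06, 9.20 and 9.05 in CR samples, against 8.74, 8.21, 8.61 and 8.66 in control samples, a difference of 0.48 ± 0.18 without overlap. Ctns, the cystine transporter of lysosomes, differed by 0.24 ± 0.09 without overlap, with CR replicate 5 highest at 7.17. Zdhhc23 (0.39 ± 0.14), the chaperone gene Hsp90b1 (0.29 ± 0.10), Psapl1 (0.66 ± 0.23) and Angptl7 (0.37 ± 0.13) had overlapping groups, as had Npas2. The unnamed transcript 1810014B01Rik, chosen after its values were seen, differed by 0.43 ± 0.14 without overlap (adjusted p = 1.00), and by 0.77 in aged mice (adjusted p = 0.00343, limma).

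DNA replication genes were the list with the lowest median outside the clock. Of 28 tested, 27 had a difference below 0, the median was -0.34 and the range ran from -0.74 to 0.07, beside a median of -0.01 over all genes. After adjustment 0 passed, 8 (28.6%, beside 1.14% of all genes) were lower at an unadjusted p under 0.05, and in 0 were the groups free of overlap. Without control replicate 1, 0 of the 28 were lower at that p and the median was -0.18. Without CR replicate 4, 2 were lower and the median was -0.185, without CR replicate 3 or 5, 4 were, and without control replicate 2, 14 were. The genes of this list moved together when arrays were left out, so they are not independent of each other. Of the 8 genes counted with all arrays, Rrm1 had p = 0.0476 in the exact permutation test of the 9 arrays. The rest had p of 0.0952 to 0.238 in that test. Gins1, a subunit of the replicative helicase, was read at 7.33, 7.42, 6.79, 6.17 and 6.86 in CR samples, against 8.57, 7.16, 7.51 and 7.39 in control samples. Control replicate 1 was highest and the groups overlapped, with a difference of -0.74 ± 0.25 (adjusted p = 1.00), or -0.44 without that array. Chaf1b, a histone chaperone of the fork, differed by -0.48 ± 0.19, again with control replicate 1 highest at 9.24, and by -0.19 without it. In aged mice the median of this list was 0.09. Mitosis genes had a median of -0.03 over 23 and G1 regulators of 0.01 over 15 genes. Either list had 0 genes at an unadjusted p under 0.05, beside 1.14% lower and 0.471% higher of all genes. In bulk samples like these, fewer cells of a type and less RNA per cell cannot be told apart.

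Genes of the unfolded protein response had the highest median of the stress and metabolic lists, 0.16 over 18 genes, of which 16 were above 0. Of these, 0 passed and 3 (16.7%, beside 0.471% of all genes) were higher at an unadjusted p under 0.05. That count was 0 without control replicate 2 and 1 without CR replicate 1, 2 or 3, and at most 4 without another array. The genes of this list, too, are not independent of each other. In the exact permutation test of the 9 arrays, the 3 genes counted with all arrays had p of 0.111 to 0.175. Hsp90b1, the ER chaperone GRP94, was read at 11.19, 11.22, 11.20, 10.77 and 10.74 in CR samples, against 10.72, 10.42, 10.97 and 10.83 in control samples, so that CR replicates 4 and 5 lay within the control range. Pdia4, an ER disulfide isomerase, differed by 0.25 ± 0.12. In aged mice both passed, with 0.56 (adjusted p = 0.00343) and 0.64 (adjusted p = 0.00343), and the list's median was 0.27. Of the same list, Sdf2l1 passed there as well, with 1.16 (adjusted p = 0.00606, limma). Herpud1, also of this list, passed there in the other direction, with -0.65 (adjusted p = 0.0279, limma).

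In the heat shock list, with a median of 0.07 over 10 genes, Cirbp stood apart. Cirbp encodes a cold-inducible RNA-binding protein, known to be induced by lower and not by higher temperature. It was read at 7.50, 6.87, 6.96, 6.79 and 7.05 in CR samples, against 7.97, 7.55, 8.20 and 8.21 in control samples, without overlap. The difference was -0.95 ± 0.31 (adjusted p = 1.00), and at ZT0 it was 1.23. Hsph1, an HSP70 co-chaperone induced by heat, differed by 0.44 ± 0.23 with overlap. Body temperature is not given in the labels.

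**Figure D5:**
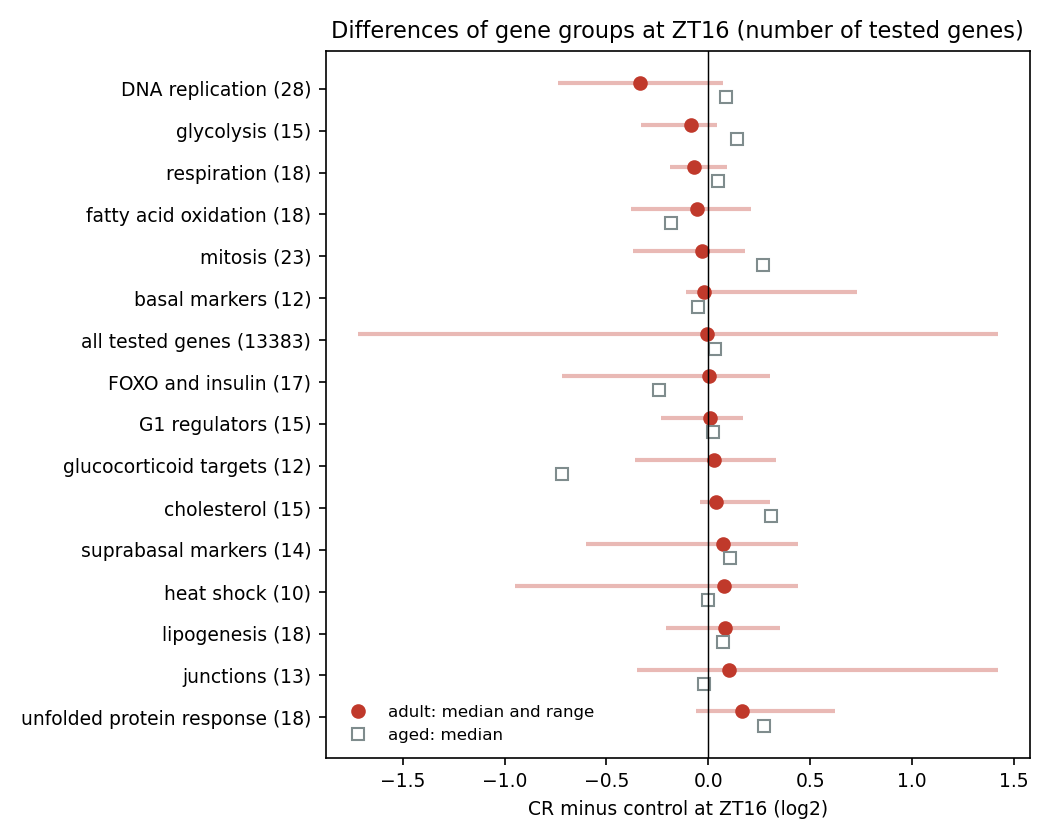
CR minus control at ZT16 in log2 units for 15 gene lists and all tested genes: adult median (red circles) with the range of the members (red lines), and aged median (open grey squares), with the number of tested genes in brackets. DNA replication has the lowest adult median (-0.34) and the unfolded protein response the highest (0.16), and the lists' ranges overlap each other.

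Metabolic lists lay close to 0 in adult mice at ZT16. Fatty acid oxidation had a median of -0.06 over 18 genes, with 1 lower at an unadjusted p under 0.05 (beside 1.14% of all genes): Cpt1a, the carnitine transferase that admits fatty acids to mitochondria, differed by -0.36 ± 0.18 with CR replicate 4 highest of all 9 arrays at 9.44. Eci2, an isomerase of this pathway, differed by -0.38 ± 0.26. Glycolysis (-0.09 over 15), respiration (-0.07 over 18), lipogenesis (0.08 over 18), cholesterol synthesis (0.04 over 15), FOXO and insulin signalling (0.00 over 17), autophagy (-0.01 over 14) and antioxidant defence (0.01 over 18) had 0 genes at an unadjusted p under 0.05 in either direction, beside 1.14% lower and 0.471% higher of all genes. The same held for glucocorticoid targets, whose median was 0.03 over 12 genes in adult mice. In aged mice their median was -0.72, with 7 of 12 lower at an unadjusted p under 0.05, beside 2.97% of all genes. In adult mice the mean level of this list per array lay at 9.82 to 10.12 in CR and 9.3 to 10.3 in control samples. For adult minus aged, 0 genes passed after adjustment. In limma, 5 of these 12 were higher in that difference at an unadjusted p under 0.05, beside 104 of all 13383 genes. For CR against control in adult mice, DNA repair (-0.16 over 18), immediate early (0.01 over 15), interferon (0.16 over 11), inflammation (0.05 over 14), TGF beta and BMP (0.00 over 13) and matrix genes (-0.05 over 11) had 0 genes at that p either.

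Junction genes held the highest difference of all tested genes. Cldn4, a claudin of tight junctions, was read at 7.66, 8.09, 7.72, 9.49 and 7.26 in CR samples, against 6.11, 6.93, 6.89 and 6.56 in control samples. Every CR array lay above every control array, with CR replicate 4 far above the rest, and the difference was 1.42 ± 0.61 (adjusted p = 1.00). Dsg2, a desmosomal cadherin of basal cells, differed by -0.35 ± 0.14, with replicate 4 again the highest CR array, at 10.08. The list's median was 0.10 over 13 genes. In the WNT and Notch list (median -0.03 over 15), the WNT inhibitor Sfrp1 differed by -0.38 ± 0.17 and the Notch ligand Jag1 by 0.23 ± 0.17. Suprabasal genes had a median of 0.07 over 14, with Sbsn, a protein of upper epidermal layers, at 0.36 ± 0.16 and Tgm3, a transglutaminase, at -0.60 ± 0.29. Basal keratinocyte markers had a median of -0.02 over 12 genes and 0 at an unadjusted p under 0.05, beside 1.14% lower and 0.471% higher of all genes.

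Lists that mark other cells of the skin had 0 genes at an unadjusted p under 0.05 in either direction, beside 1.14% lower and 0.471% higher of all tested genes. At these shares lists this short would hold few or none, so the counts do not show that other cells were alike. The mean level of each list, taken per array over its genes on the array, is given as a range over arrays. Hair follicle genes (9 of 15 above the filter) lay at 6.27 to 6.57 in CR and 6.25 to 6.43 in control samples. Sebocyte genes (5 of 8) lay at 6.06 to 6.58 in CR and 5.92 to 6.27 in control samples. Melanocyte genes (3 of 8) lay at 5.30 to 5.48 in CR and 5.25 to 5.53 in control samples, near the dim end of the scale. Fibroblast genes (6 of 9) lay at 5.01 to 5.18 in CR and 4.79 to 5.44 in control samples. T cell genes (7 of 8) lay at 5.20 to 5.51 in CR and 5.26 to 5.58 in control samples. Langerhans and myeloid genes (9 of 11) lay at 6.17 to 6.51 in CR and 6.24 to 6.44 in control samples. Endothelial genes (5 of 8) lay at 5.10 to 5.36 in CR and 5.02 to 5.40 in control samples. Muscle genes (6 of 9) lay at 5.08 to 5.36 in CR and 4.98 to 5.33 in control samples, and adipocyte genes (2 of 5) at 4.91 to 5.07 in CR and 4.72 to 5.21 in control samples. Erythroid genes (3 of 3) lay at 5.76 to 6.15 in CR and 5.73 to 6.13 in control samples. The CR and control ranges overlapped in each of these lists, and the part of other cells in the results was not tested.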

How the data were processed

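The authors deposited log2 expression values. Per the submitters' processing notes these came from RMA, a method that corrects background, normalizes quantiles and summarizes probe sets, with its version not given in the sources used here. Per the labels' protocols, cDNA was amplified over 17 cycles from 25 ng of total RNA, and 8 µg was labelled with biotin. The values were used as deposited, from 45140 probe sets on 102 arrays. Of these, 28898 carried 1 symbol in the platform annotation, 551 several and 15691 none. The brightest probe set stood for a gene, and 13383 of 17097 genes whose mean reached the 30th percentile of probe set means were tested. The filter removes dim genes, and the effect of RMA's background step on differences was not tested.

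A limma model (version 3.58.1, R 4.3.3) with 24 group means over all arrays gave each contrast, with 78 residual and 4.91 prior degrees of freedom, a median SE of 0.163 and Benjamini-Hochberg adjustment over all genes. The number of arrays limits the precision. The fit was checked on simulated data. Exact permutation tests over the arrays were two-sided.

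The comparison, the 40 gene lists (448 of 568 genes tested) and the tests were chosen with earlier results of these data known. The rule, which leaves out unnamed transcript symbols (such as those ending in Rik), named the 15 largest rises and falls past the threshold, or up to 8 genes by p where fewer passed, all tested clock genes, up to 2 genes of other lists and the 6 smallest p of each difference. Of lists with no gene at an unadjusted p under 0.05, counts and medians are given instead. Alternatives were median-centred arrays, other filters, the mean of probe sets, a replicate block, covariates (background, Xist minus Y-linked genes), array weights, fewer arrays, another eBayes and arrays left out. Those for aged mice, gene-by-gene weights, the loss of control arrays 2 and 3, those for the nearest time and arrays left out of list counts were chosen after seeing the data. The labels do not say whether a replicate number marks a day, and the numbers were not treated as pairs in the main fit. Deviations of same-numbered adult arrays at ZT16 correlated at -0.485 to 0.116. Over all ages and times they correlated at -0.515 to 0.61. These values cannot show whether the numbers mark days.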

Additional observations from a re-analysis of the deposited data

Results flagged for a closer look

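For each gene named and for 4 measures of the arrays, the highest or lowest array of a group was compared with the rest of it (Dixon's ratio, 95% critical value). Of 112 groups, 11 exceeded it, where chance gives about 5.6, or 1 in 20, if genes are not chosen by their values. The groups share the same 9 arrays, and many of the genes were named by their p on them. The figure of 5.6 is therefore only a rough guide. On control replicate 1, Herpud1 (9.49), Trp53inp1 (8.03) and Tgm3 (9.93) were far below and Pgm1 (7.65) far above the other control arrays. On control replicate 3, Npnt (9.13) and Eci2 (9.11) were far above them, and on control replicate 2 the mean of the dim probe sets was (3.947). Among CR arrays, Csnk1e (7.49) and Dsg2 (10.08) stood out above on replicate 4, Ctns (7.17) on replicate 5 and Bspry (5.79) on replicate 1. The adult minus aged values of Herpud1, Trp53inp1, Pgm1 and Bspry rest in part on these arrays, and the cause was not tested.

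In adult mice the diet difference at ZT16 departed from its mean over the other times for 3 genes, by limma's test of that contrast. These were Sphk2 (-2.07), Dbp (-1.53) and Per2 (-0.97). Of these, only Sphk2 passed in the comparison at ZT16 itself. The mean joins differences of both signs, so the test does not set ZT16 apart from each other time. For Dbp, CR minus control was 1.63 at ZT4 and 1.29 at ZT8, but -0.76 at ZT12, beside -1.08 at ZT16.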

How the results depend on the processing

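Calls of CR against control in adult mice at ZT16 numbered 1. They were 2 with arrays centred on their median, 0 with the mean of a gene's probe sets, 0 in the 9 arrays alone, 0 there with a replicate block, 3 in the adult arrays alone, 0 by the exact permutation test, 215 at an unadjusted p under 0.05, 464 with array weights and 14 with gene-by-gene weights. The array weights did not converge and gave control replicate 4 a weight of 10.8, against 0.239 to 2.37 on the other 8 arrays. Leaving out 1 array gave 0 to 1 calls. In aged mice the 22 calls became 13 with the replicate block, 14 with the background as covariate, 375 with array weights, 296 with gene-by-gene weights and 4 to 20 without 1 array. Adult minus aged gave 2 with array weights and 0 without any 1 array. ZT16 against the other times gave 3 calls, which became 1 with centred arrays, 0 with the mean of probe sets, 1 with the replicate block, 145 with array weights, 23 with gene-by-gene weights and 1 to 4 without 1 array. In CR against control in adult mice at ZT16, the replicate block over all arrays left Sphk2 called (adjusted p = 0.0392, limma). In no case was the cause tested.

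Other filters, the 9 or the adult arrays alone, another eBayes and the permutation test leave the difference of a gene as it is and cannot reverse it. Of 52 genes named, 41 kept their direction under every alternative. The others crossed 0, and none of them was called with the settings as reported. One of them, Per1, passed with array weights (-0.59, adjusted p = 0.0128). With centred arrays Per1 was at 0.028, Csnk1e at 0.016 and Aldh3b1 at 0.023. With the mean of probe sets Clock was at -0.016, Rora at -0.067, Csnk1e at 0.039 and Herpud1 at -0.003. With the replicate block, in all arrays or in 9, Rora was at -0.043 and Nfil3 at 0.002. With the background covariate Per1 was at 0.026 and Csnk1e at 0.015, and with the Xist covariate Rora was at -0.002. With array weights Clock was at -0.134, Rora at -0.092, Usp2 at -0.185, Csnk1e at 0.175, Herpud1 at -0.168, Lrrc51 at 0.014 and Trp53inp1 at -0.262. With gene-by-gene weights Clock was at -0.09, Rora at -0.083, Usp2 at -0.08, Csnk1e at 0.118, Herpud1 at -0.117 and Trp53inp1 at -0.127. Without control arrays 2 and 3 Per1 was at 0.143. Without 1 array each in turn, Clock at -0.018 to 0.297, Per1 at -0.315 to 0.205, Rora at -0.056 to 0.040, Nfil3 at -0.325 to 0.002, Csnk1e at -0.121 to 0.101, Herpud1 at -0.165 to 0.212, Bspry at -0.023 to 0.183, Trp53inp1 at -0.373 to 0.718 and Aldh3b1 at -0.094 to 0.052 crossed 0. In all, 26 of the 52 differences moved by over 1.5 times or crossed 0 without some 1 array, 19 of them without control replicate 1.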
